A study of Mus musculus with 4 samples.

Results

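Open chromatin was examined around the genes of the peroxisome proliferator-activated receptors (Ppara, Ppard and Pparg), of their partner receptors (Rxra and Rxrb) and of the PGC-1 coactivators (Ppargc1a and Ppargc1b) in bone marrow stem cells with and without Cpt1a. The members were the stretches with an ATAC-Seq peak that overlapped the body of any of these 7 genes or the 10 kb on each side of it. Peaks of the 4 libraries that shared at least 1 bp were merged into union regions, which gave 264 regions around the 7 genes of 337776 in all. Of these, 124 were held by at least 2 libraries, of 137553 in all. ATAC-Seq cuts open DNA with the Tn5 transposase, so that a peak marks a stretch where the DNA was easily reached. The series holds 2 control libraries and 2 KO libraries. The labels give the cells as ltHSC (long-term hematopoietic stem cells) sorted from total bone marrow, and the genotypes as WT and Cpt1a-KO. The study describes the controls as Cpt1a fl/fl mice, the KO as the same allele deleted by Vav1-Cre, which acts throughout the hematopoietic system and not in stem cells alone, and the sorted cells as HSPCs, a wider population. How many mice went into each library was not given in the sources used here, so a difference between libraries may be technical.

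PPARs are nuclear receptors that bind fatty acids and their derivatives and sit on DNA as pairs with an RXR, at an element made of repeats of the hexamer AGGTCA. PPARα and PPARδ are best known for switching on fatty acid oxidation genes, Cpt1a among them, and PPARγ for the formation of fat cells. PGC-1α and PGC-1β bind these and other receptors and raise the transcription of genes for mitochondria and oxidation. PPARδ with its fatty acid oxidation program is known for its part in the maintenance of hematopoietic stem cells.

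For each summit the lists give a fold over the background of its own library, a −log10 p and a −log10 q. They carry no counts of reads, and the depth behind each list is therefore unknown. Control 1 listed 277531 summits on the autosomes and X, control 2 listed 262443, KO 1 listed 266163 and KO 2 listed 240881. Values were therefore compared as the percentile of a peak among the peaks of its own library by the fold, where 100 is the strongest. With 2 libraries against 2 the smallest p of a two-sided exact permutation test is 0.333, so that no difference between the genotypes can pass the 0.05 threshold by that test, and the counts over the 7 genes are given beside the percent of all regions with the same pattern. Of 11 stem and progenitor cell markers with an annotated start in the table used, 10 had a start with a peak in all 4 libraries. This held for 0 of 4 for T cells, 0 of 4 for erythroid cells and 2 of 4 for B cells. It held for 3 of 5 for neutrophils and monocytes and 1 of 4 for fat cells and stroma (Cxcl12). No library had a peak at any start of 1 stem and progenitor marker and 1 marker of neutrophils and monocytes. Such markers numbered 2 each for T, erythroid and B cells and 3 for fat cells and stroma. All 4 libraries held 52.9% of the stem and progenitor marker regions that at least 2 held, against 58.4% of all regions. It was 55.3% for T, 65.5% for erythroid and 58.6% for B cells, 51.4% for neutrophils and monocytes and 71.9% for fat cells and stroma. At Cpt1a, the targeted gene, 18 regions were held by at least 2 libraries, 11 of them by all 4. Whether the floxed part of the gene was deleted was not read from these peaks.

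All 5 receptor genes had a peak at their first annotated start in all 4 libraries, while the annotated start of Ppargc1a had none in any. In sorted cells, a change in the share of a cell type and a change in openness within the cells cannot be told apart. Around markers of other cell types, regions only in control made up 13.8% for erythroid cells (4 of 29), against 6.05% of all regions. They made up 13.5% for neutrophils and monocytes (5 of 37) and 12.5% for fat cells and stroma (4 of 32). Each of these lists had 0 regions only in KO, against 3.47% of all regions. The share only in control was 6.90% for B cells (4 of 58, with 2 only in KO). For T cells it was 2.63% (1 of 38, with 1 only in KO). For stem and progenitor cells it was 6.33% (14 of 221, with 5 only in KO). The part of other cell types in the values of the 7 genes was not tested. Of the 124 regions, all 4 libraries held 67 (54.0%, against 58.4% of all regions), and 23 were held by 3 libraries. Regions only in KO, held by both KO libraries and neither control, numbered 9 (7.26%, against 3.47% of all regions). Regions only in control numbered 10 (8.06%, against 6.05% of all regions). The remaining 15 were held by 1 control and 1 KO library. A further 140 of the 264 regions (53.0%, against 59.3% of all union regions) were held by a single library and were left out of the comparisons. Control 1 held 143 of the 264 regions, control 2 held 130, KO 1 held 138 and KO 2 held 134. KO 2 was the library most often missing where 3 held a region, at 12 of 23 (52.2%, against 41.2% over the series). KO 2 listed the fewest summits. Control 2 held the fewest of the 264 regions and had the fewest merged intervals, 161962 against 175484 in KO 2.

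**Figure D1:**
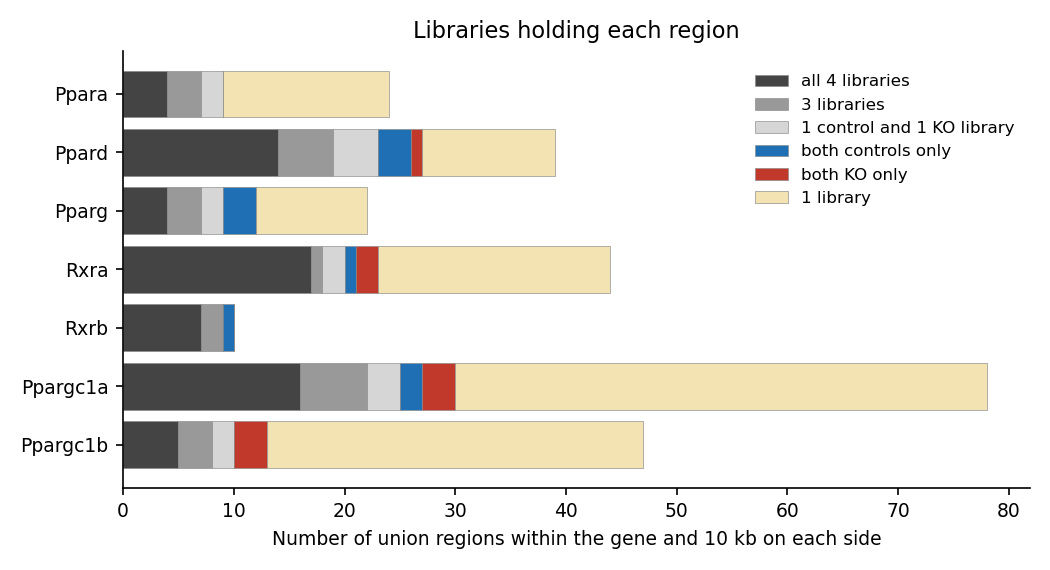
The bars give, for each of the 7 genes, the number of union regions within the gene and 10 kb on each side, split by which of the 4 libraries held a peak there. Ppargc1a has 78 regions, 48 of them held by 1 library, Rxrb has 10 and none of 1 library, and only-KO regions lie at Ppard, Rxra, Ppargc1a and Ppargc1b.

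The DNA upstream of 6 starts is shown to set 4 starts with a peak in all 4 libraries beside the last Pparg start, with a peak in 3, and the Ppargc1a start, with none. The lines below give the 250 bases before each of these starts (RefSeq, GRCm38.p6, the assembly of mm10), 5′ to 3′ on the strand of the gene, with capitals for GGGCGG, the box bound by SP and KLF factors, and for AGGTCA, on either strand. All of these windows but that of Ppard lie inside the annotated span of their gene.
Ppara, chr15:85735526-85735775, plus strand: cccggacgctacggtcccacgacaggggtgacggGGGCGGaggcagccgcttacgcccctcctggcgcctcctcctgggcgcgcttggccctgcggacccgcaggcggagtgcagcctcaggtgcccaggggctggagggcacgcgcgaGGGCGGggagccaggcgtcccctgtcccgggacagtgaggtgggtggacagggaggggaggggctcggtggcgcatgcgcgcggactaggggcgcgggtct
Ppard, chr17:28232504-28232753, plus strand: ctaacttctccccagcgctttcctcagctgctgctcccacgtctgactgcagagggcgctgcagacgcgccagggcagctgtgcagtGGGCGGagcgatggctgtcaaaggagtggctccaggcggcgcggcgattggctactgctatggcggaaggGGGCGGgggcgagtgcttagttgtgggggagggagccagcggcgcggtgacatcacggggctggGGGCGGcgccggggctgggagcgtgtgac
Pparg first start, chr6:115360894-115361143, plus strand: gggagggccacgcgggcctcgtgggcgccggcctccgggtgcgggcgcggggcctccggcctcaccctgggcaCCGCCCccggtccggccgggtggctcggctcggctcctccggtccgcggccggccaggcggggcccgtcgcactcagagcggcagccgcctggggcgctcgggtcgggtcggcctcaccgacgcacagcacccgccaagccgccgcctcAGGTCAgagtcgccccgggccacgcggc
Pparg last start, chr6:115421816-115422065, plus strand: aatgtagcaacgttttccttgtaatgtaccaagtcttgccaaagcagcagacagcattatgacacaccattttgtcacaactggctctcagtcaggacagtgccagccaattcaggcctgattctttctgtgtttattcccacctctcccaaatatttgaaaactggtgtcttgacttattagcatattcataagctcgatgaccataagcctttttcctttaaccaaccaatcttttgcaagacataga
Rxra first start, chr2:27676951-27677200, plus strand: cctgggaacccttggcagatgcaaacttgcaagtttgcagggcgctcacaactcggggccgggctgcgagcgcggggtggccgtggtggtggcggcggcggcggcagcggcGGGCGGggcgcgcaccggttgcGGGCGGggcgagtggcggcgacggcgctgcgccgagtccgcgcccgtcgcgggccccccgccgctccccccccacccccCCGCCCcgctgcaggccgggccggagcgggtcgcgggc
Ppargc1a, chr5:51567726-51567975, minus strand: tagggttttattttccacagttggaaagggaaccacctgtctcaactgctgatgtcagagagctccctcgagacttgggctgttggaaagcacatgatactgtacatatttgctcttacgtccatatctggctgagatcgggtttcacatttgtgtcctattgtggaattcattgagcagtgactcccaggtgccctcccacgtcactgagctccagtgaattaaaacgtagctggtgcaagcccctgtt

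GC made up 76.4% of the window at Ppara, 69.6% at Ppard, 82.4% at the first start of Pparg and 81.2% at that of Rxra, and these windows held 2, 3, 1 and 3 GGGCGG boxes. At the downstream Pparg start, the last of the annotated ones, the window had 40.8% GC and that of Ppargc1a 48.0%, with 0 boxes in each. The second Pparg start, with a peak in 3 libraries, had 63.6% GC and 2 boxes, and the second Rxra start, with no peak, had 55.2% and 0. Over all 32619 annotated starts, 33.0% of windows held a box. Of starts with a GC content under 50%, 15.9% had a peak in all 4 libraries and 77.7% in none, and of starts at 80% or more, 97.0% and 0.741%. No window of the 6 genes in the promoter table (all but Ppargc1b) held the PPAR-RXR element searched, 2 copies of AGGTCA 1 base apart on either strand, which was found in 11 of the 32619 windows (0.0337%). The lone hexamer AGGTCA, present in 14.1% of windows, occurred once at the first and the second Pparg starts, and 2 times at the second Rxra start. Letters bound by blood cell factors, and the E-box letters CACGTG, were searched on both strands too. The PU.1 motif GAGGAAGT occurs in 2.46% of all windows and the ETS motif CCGGAAGT in 2.90%. The RUNX motif TGTGGT occurs in 13.9% of all windows. The GATA motif AGATAA is found in 10.0% of them and the E-box letters CACGTG in 6.06%. Windows of the 6 genes had 0 matches to any of these. A match or its absence describes these letters in these windows and says nothing of binding.

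The genes differed in how densely they were covered. Rxrb (chr17:34031812-34038403), 6.59 kb long, had 37.6 regions held by at least 2 libraries per 100 kb of gene and flank, although 7 of its 10 overlapped neighboring genes (Ring1, H2-Ke6, Slc39a7 and Col11a2). Ppard (chr17:28232754-28301469) had 30.4 per 100 kb and Rxra (chr2:27676445-27763319) had 21.5. Ppargc1b (chr18:61291445-61400756), Ppara (chr15:85734910-85806851) and Pparg (chr6:115360879-115490404) had 10.1, 9.79 and 8.03. Ppargc1a (chr5:51454249-52115853), which spans 661.6 kb, had 4.40, the lowest of the 7. Coordinates are in mm10, and the annotation used gives no exons or introns, so regions are placed by their distance from an annotated start.

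Ppard, the receptor tied to stem cell maintenance, had the most open start of the 7 genes by mean percentile. Its region at chr17:28232272-28233717 had a fold of 17.1 in control 1, 18.3 in control 2, 17.6 in KO 1 and 15.4 in KO 2. Its percentiles were 97.1, 97.8, 97.6 and 96.8, so that the genotypes overlapped. Among the 13294 genes with a start open in all 4 libraries, these values stood at the percentiles 68.1, 77.7, 70.02 and 64.8, which puts the Ppard start above the middle of open starts in every library. The start of Ppara (region chr15:85734584-85736396) had a fold of 15.1 and 14.8 in control 1 and control 2 and 10.8 and 16.3 in KO 1 and KO 2. KO 1 had the lowest and KO 2 the highest of the 4 values, with percentiles of 95.7, 95.1, 91.8 and 97.4, and the genotypes overlapped.

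At the first start of Pparg (region chr6:115360769-115362075) the fold was 7.90 in control 1, 9.23 in control 2, 9.46 in KO 1 and 10.4 in KO 2. The percentiles were 84.1 and 86.2 in the controls against 89.4 and 91.6 in the KO libraries, so both KO libraries lay above both controls. Among open starts the region stood at the percentiles 22.8, 29.7, 30.2 and 37.8, in the lower part in every library. The −log10 q of the same peaks was 18.6, 25.1, 23.3 and 22.6, which does not separate the genotypes. The region of the second Pparg start (chr6:115362131-115362361) was weak, with a fold of 2.63 in control 1, 2.13 in KO 1, 2.35 in KO 2 and no peak in control 2. A downstream promoter of Pparg is known for the isoform of fat cells. The last of the annotated starts had a region in its window (chr6:115421752-115421944), 60.7 kb from the first start, with a fold of 2.92 in control 1, 5.34 in control 2, 2.85 in KO 2 and no peak in KO 1.

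Rxra, the RXR that pairs with the PPARs in many tissues, had the weakest open first start among the 5 receptor genes. Its region at chr2:27676073-27677955 had a fold of 4.47 and 5.08 in the controls and 5.49 and 5.49 in KO 1 and KO 2. Percentiles were 67.1 and 68.6 in control 1 and control 2 and 76.6 and 76.9 in KO 1 and KO 2, and the genotypes did not overlap. Among open starts it stood at the percentiles 7.32, 10.9, 12.7 and 15.1. Its −log10 q values of 9.07, 12.0, 13.4 and 9.18 overlapped between the genotypes. No library had a peak at the second annotated start of Rxra (chr2, 27709292). The nearest region, held by control 2 alone, lay 218 bp away and the nearest held by all 4 libraries 4556 bp away.

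Rxrb, the RXR gene within the major histocompatibility complex, shared its start region with a neighbor. The region at chr17:34031469-34032602 covered both annotated starts of Rxrb and that of Slc39a7, a zinc transporter gene. Its fold was 11.0 in control 1, 8.52 in control 2, 11.2 in KO 1 and 12.8 in KO 2. Percentiles were 90.9 and 84.2 in the controls against 92.2 and 94.6 in the KO libraries, with the KO libraries above the controls and control 2 the lowest. Its −log10 q was 160.5 and 110.8 in control 1 and control 2 and 148.2 and 116.1 in KO 1 and KO 2. These values overlapped between the genotypes. Which of the starts the fold belongs to cannot be told apart.

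The start regions of Pparg, Rxra and Rxrb thus lay higher by rank in both KO libraries than in both controls, and those of Ppara and Ppard did not separate. Over the series, 27.9% of the 12083 regions at an annotated start held by all 4 libraries showed the KO libraries above the controls and 10.4% below. This share moved with base composition. It was 22.0% where the 250 bases upstream had under 50% GC, 25.8% from 50% to 60%, 29.5% from 60% to 70%, 32.2% from 70% to 80% and 35.8% from 80%. Pparg and Rxra, at 82.4% and 81.2%, belonged to the last class, as did the second Rxrb start at 82.4%, while the first Rxrb start had 69.2%. The part of base composition in the values at these starts was not tested. The same order of genotypes at Pparg, Rxra and Rxrb was found with peaks ranked by −log10 p. By that rank Pparg had 83.1 and 84.0 in control 1 and control 2 and 87.4 and 89.8 in KO 1 and KO 2. Rxra had 73.5 and 73.2 against 81.0 and 79.5, and Rxrb had 98.2 and 96.1 against 98.3 and 98.8.

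**Figure D2:**
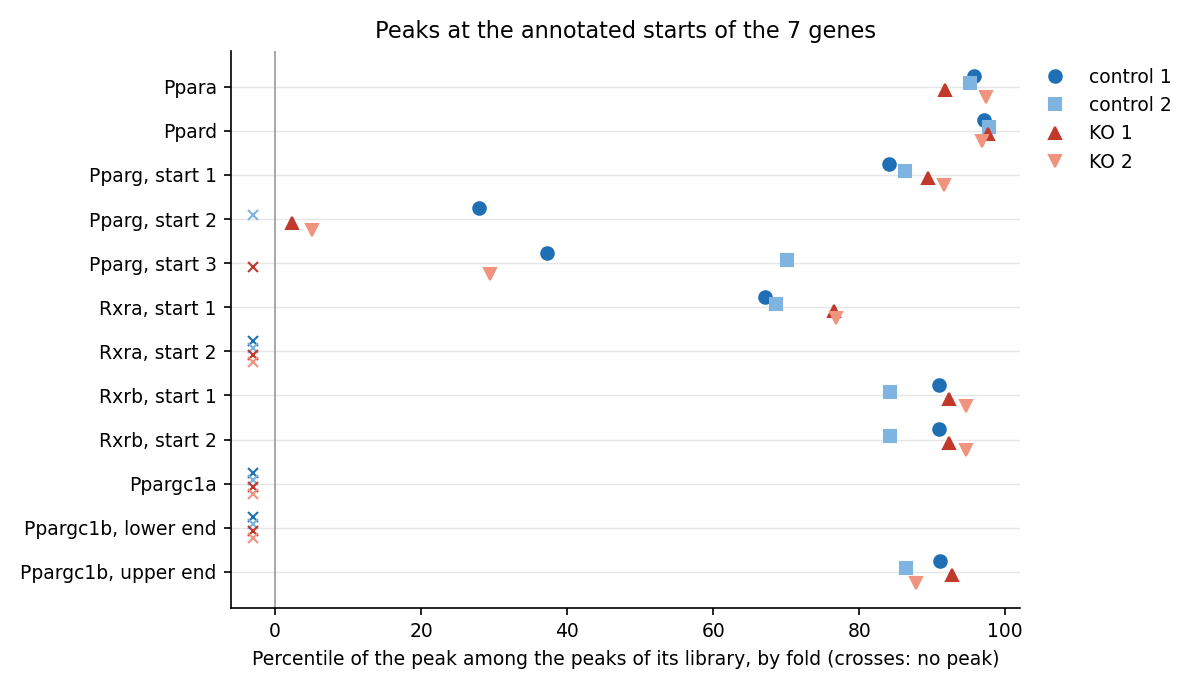
Each row is an annotated start (for Ppargc1b, an end) of the 7 genes, and each point is the percentile of the peak there among all peaks of its library by the fold, with crosses for libraries that had no peak. The KO points lie above the control points at the first start of Pparg, at the first start of Rxra and at Rxrb, while Ppargc1a and the second Rxra start have no peak in any library.

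Among the coactivator genes, Ppargc1a differed from the receptors at its annotated start, while Ppargc1b had no start in the table used. Ppargc1a has 1 start in the promoter table used (chr5, 51567725, minus strand), and no library had a peak in its window. Over the series, 44.7% of annotated starts had a peak in no library and 47.7% had one in all 4. The nearest region to the start lay 3841 bp away and the nearest held by all 4 libraries 13371 bp away. The annotated gene reaches 548 kb further upstream than this start, and its upper end was open in all 4 libraries. A region across that end (chr5:52115618-52116336) had a fold of 7.43, 6.68, 6.98 and 7.21 in control 1, control 2, KO 1 and KO 2, with percentiles of 82.5, 77.4, 83.1 and 84.0. By percentile the KO libraries were the higher ones there, with KO 1 just above control 1, while by the fold control 1 was the highest. Within 10 kb of the upper end lay 11 regions, 7 of them held by at least 2 libraries and 5 by all 4. The 57 regions between there and the annotated start included 18 held by at least 2 libraries and 8 held by all 4.

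By mean percentile over the 4 libraries, the strongest Ppargc1a region lay in that long stretch, 286.0 kb upstream of the annotated start (chr5:51853305-51854216). Its fold was 9.75 in control 1, 13.9 in control 2, 11.1 in KO 1 and 13.2 in KO 2, with percentiles of 88.7, 94.3, 92.1 and 95.1, and the genotypes overlapped. In control 1 other regions were stronger, led by chr5:52064930-52065523 with a percentile of 92.0, and in KO 1 so was a region at chr5:51552015-51553180, with 92.8 (both named after their values were seen). For Ppargc1b the table holds no start with a strand, so both ends of the gene were read. The upper end (region chr18:61398530-61400911, which also overlaps Gm52354) had a fold of 11.1, 9.34, 11.5 and 8.49, with percentiles of 91.1, 86.5, 92.7 and 87.7. Each genotype had a higher and a lower library there, and the genotypes overlapped. No library had a peak at the lower end.

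**Figure D3:**
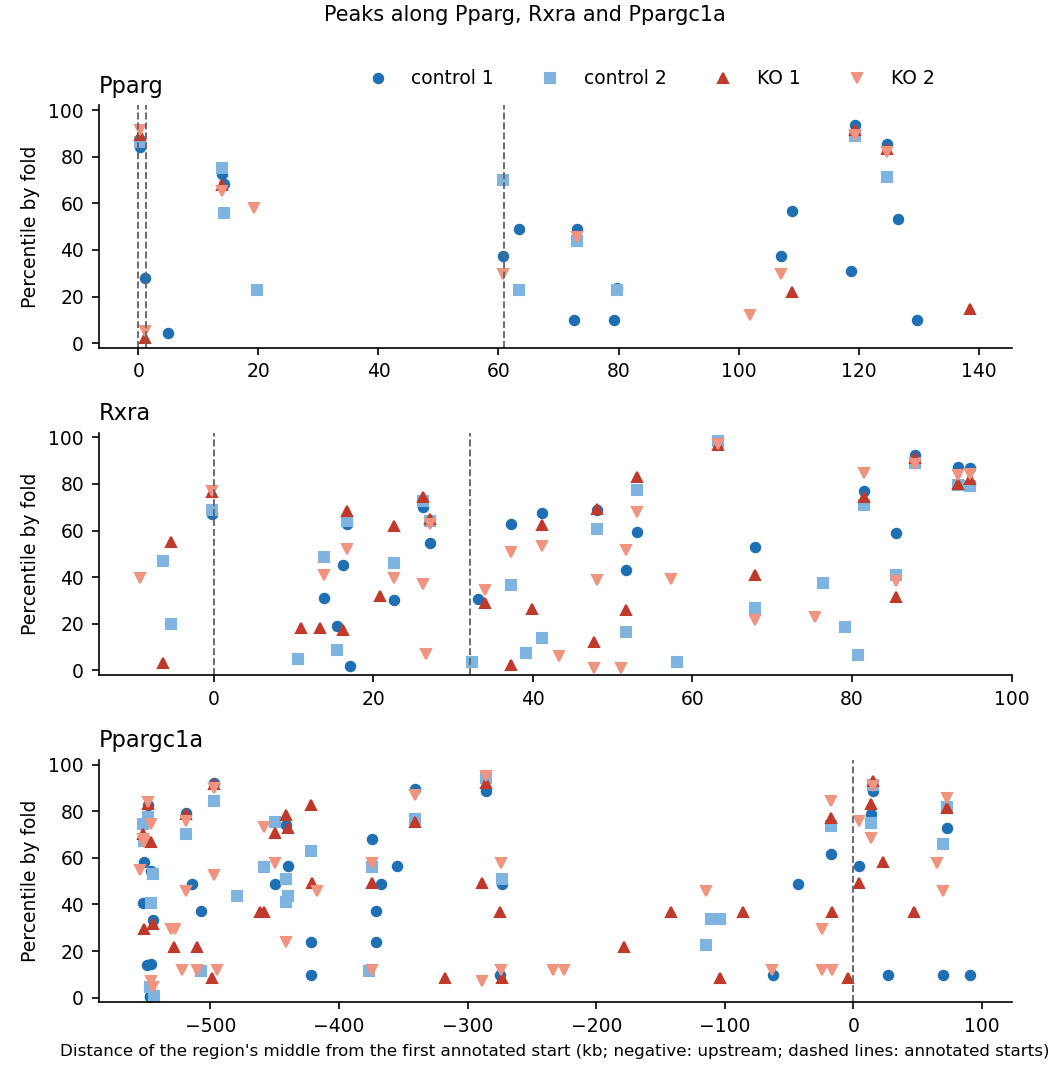
Each point is the peak of a library in a union region, placed by the distance in kb of the middle of the region from the first annotated start (x axis, negative upstream, dashed lines for annotated starts) and by its percentile by the fold (y axis). Rxra shows its strongest region at 63.2 kb, above its own start, and the Ppargc1a start at 0 kb has no point in its window while groups of points lie around 548 kb upstream.

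At Rxra and Pparg, too, the strongest region by mean percentile lay away from an annotated start. The strongest region of Rxra was at chr2:27739952-27740891, 63.2 kb from the first start, with a fold of 17.2 and 19.4 in the controls against 15.9 and 15.6 in the KO libraries. Its percentiles were 97.2 and 98.5 in the controls and 96.6 and 96.9 in KO 1 and KO 2, so that both KO libraries lay below both controls, by a small margin. The strongest region of Pparg was at chr6:115480018-115481046, 119.4 kb from the first start, with percentiles of 93.4, 89.0, 91.3 and 89.2, which overlapped. In KO 2 the first start of Pparg was stronger, at 91.6. The strongest region assigned to Ppara by the 10 kb flank covered the start of the neighboring Cdpf1 (fold 18.2, 19.7, 20.1 and 17.9), so it is not a Ppara region by position, and the Ppara start was the strongest apart from it.

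Of the 67 regions held by all 4 libraries, 12 had both KO percentiles above both control percentiles (17.9%, against 22.2% of all regions held by all 4) and 9 had both below (13.4%, against 15.1%). In the other 46 the genotypes overlapped. The median difference, KO minus control, was 0.365 percentile points over the 67 regions and 0.446 over the series. The counts are given by the strength of the region. Of the 26 regions with a mean percentile of at least 80 over the 4 libraries, 7 had the KO libraries above (26.9%, against 25.6% over the series) and 2 below (7.69%, against 13.2%). Of the 27 regions from 50 to 80, 4 were above (14.8%, against 21.5%) and 2 below (7.41%, against 15.0%). Among the 14 regions under 50, it was 1 above (7.14%, against 15.0%) and 5 below (35.7%, against 20.9%). All lists were then shortened to the 240881 strongest summits, the length of the shortest. Of the 64 regions held by all 4, 19 were above and 4 below, against 32.0% and 10.2% of all such regions. With a −log10 q of at least 5, 4 of 37 were above and 5 below, against 9.44% and 28.2%. With the 100000 strongest summits of each library, 9 of 34 were above and 1 below, against 25.3% and 14.2%.

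**Figure D4:**
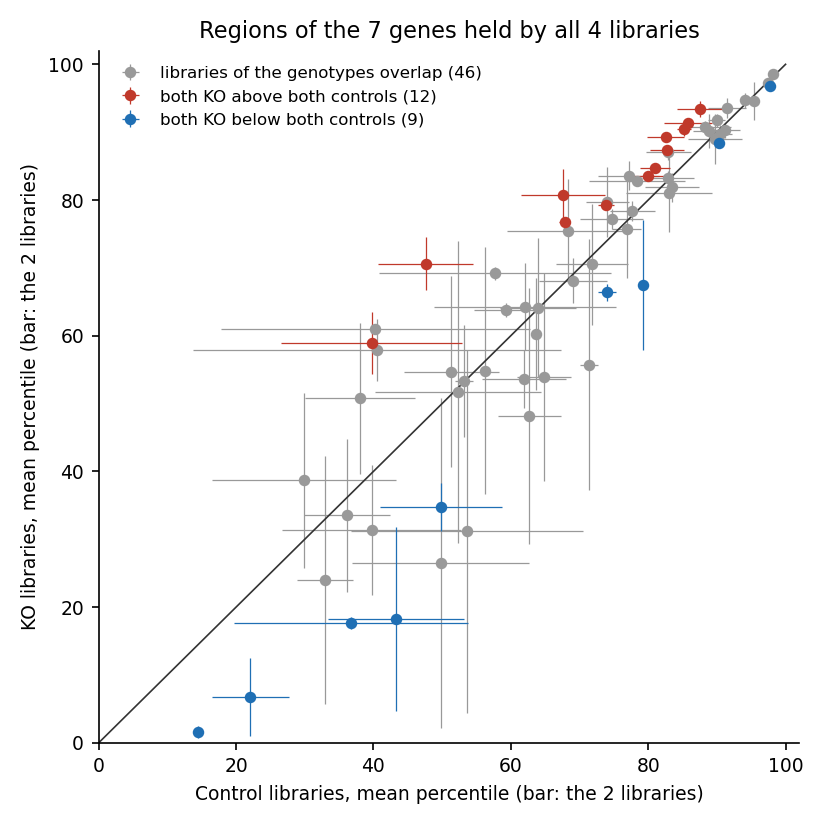
Each point is a region of the 7 genes held by all 4 libraries, with the mean percentile of the control libraries (x axis) against that of the KO libraries (y axis), bars from the lower to the higher of the 2 libraries, and the line of equality. The 12 regions with both KO libraries above sit mostly at high percentiles, 5 of the 9 with both below sit under a mean of 50, and the bars are widest for weak regions.

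Ppard accounted for 5 of the 12 regions above and 2 of the 9 below, of its 14 regions held by all 4 (35.7% and 14.3%, against 22.2% and 15.1% of all such regions). The largest of these was at chr17:28281993-28282251, 49.4 kb from the start, with percentiles of 53.0 and 26.6 in control 1 and control 2 and 54.4 and 63.5 in KO 1 and KO 2. The controls differed more from each other there than KO 1 did from control 1. In the other direction the largest at Ppard was at chr17:28295109-28295265, with 16.4 and 27.6 in the controls against 12.4 and 0.940 in the KO libraries. This was a weak peak in every library, with a fold between 2.13 and 2.80.

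Ppargc1a held a pair of regions of opposite direction near its upper end, 504 bases apart. At chr5:52113150-52113853 the percentiles were 54.5 and 40.7 in control 1 and control 2 and 66.7 and 74.5 in KO 1 and KO 2, the largest difference above at this gene. At chr5:52112286-52112645 they were 33.3 and 53.2 in the controls against 31.8 and 4.76 in the KO libraries, the largest below. The difference at the latter came mostly from KO 2, since KO 1 stood close to control 1. At Ppara 2 of the 4 regions held by all libraries lay below in the KO libraries and 0 above. Of all such regions, 15.1% lay below and 22.2% above. The larger difference was at chr15:85730238-85730387, 5.5 kb upstream of the start, with percentiles of 53.7, 19.7, 16.8 and 18.6, where control 1 stood apart from the other libraries. At Rxra the largest below was at chr2:27762636-27762800, with 58.8 and 40.9 in control 1 and control 2 and 31.3 and 38.2 in KO 1 and KO 2. At Pparg it was at chr6:115374932-115375185, 13.9 kb from the first start, with 72.7 and 75.3 in the controls against 67.6 and 65.2 in the KO libraries, a gap wider than the spread of either genotype. At Rxrb it was at chr17:34040966-34041189, within Col11a2, with 13.9, 15.1, 2.47 and 0.682. Of the 5 Ppargc1b regions held by all 4 libraries, 0 had genotypes that did not overlap.

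Where the genotypes differed in presence, the peaks had a lower fold than the median of the regions held by all 4 libraries. For the 9 only in KO, the fold lay between 2.33 and 3.91 in KO 1 and between 2.14 and 2.88 in KO 2. For the 10 only in control, it lay between 1.75 and 4.55 in control 1 and between 2.19 and 3.86 in control 2. The median fold of the 67 regions held by all 4 libraries was 5.20, 5.73, 5.49 and 4.89 in control 1, control 2, KO 1 and KO 2, and their median −log10 q was 9.07, 12.9, 10.2 and 6.83. Median widths were 154.0 bp for regions only in KO, 174.5 bp for regions only in control and 564 bp for regions held by all 4. The highest −log10 q was 3.49 in the regions only in KO and 9.17 in those only in control. The latter was in control 1, just above the median of 9.07 of the 67 regions in that library. In control 2 the same region had 7.22, below the median of 12.9. When peaks needed a −log10 q of at least 5, 54 regions of the 7 genes were held by at least 2 libraries. Of these, 0 were only in KO (against 0.807% of all regions) and 2 only in control (3.70%, against 7.02%).

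Only-KO regions lay at both coactivator genes, at Ppard and at Rxra. The Ppargc1a regions were at chr5:51584449-51584752, 16.9 kb upstream of the annotated start, with a fold of 2.93 in KO 1 and 2.44 in KO 2, at chr5:51856166-51856249, with 3.26 and 2.44, and at chr5:52078270-52078421, with 2.61 and 2.44. The first of these lay 202 bases from a region held by all 4 libraries. The Ppargc1b regions began at positions 61331891, 61335973 and 61391781 of chromosome 18, with a fold of 3.26, 3.91 and 3.58 in KO 1 and 2.83, 2.85 and 2.85 in KO 2. They made up 3 of its 13 regions (23.1%, against 3.47% of all regions), the highest share of the 7 genes. Each was weak in KO 2, with a −log10 q of 1.02, and lay more than 6 kb from a region held by all 4. At Rxra they were at chr2:27711027-27711361 (2.77 and 2.88) and chr2:27724765-27724918 (2.33 and 2.14), the latter 96 bases from a region held by all 4. The Ppard region at chr17:28287018-28287189 had a fold of 2.41 and 2.34.

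Pparg had 0 regions only in KO among its 12 held by at least 2 libraries, against 3.47% of all regions. Regions only in control (6.05% of all regions) were most numerous at Pparg, with 3 of these 12, and at Ppard, with 3 of 27. At Pparg they lay at chr6:115375359-115375509, with a fold of 4.55 in control 1 and 3.86 in control 2, at chr6:115424558-115424784, with 3.25 and 2.67, and at chr6:115440724-115440951, with 2.60 and 2.67. The first was 173 bases from the region described above, 13.9 kb from the first start, where the KO libraries had the lower percentiles, so both neighbors were weaker or missing in KO. KO 1 held 7 regions at Pparg in all, against 18, 10 and 10 in control 1, control 2 and KO 2. These counts include regions held by a single library, 6 in control 1, 1 in control 2, 1 in KO 1 and 2 in KO 2. At Ppard the 3 regions were at chr17:28251537-28251807 (fold 3.05 and 2.78), chr17:28286356-28286476 (2.41 and 2.80) and chr17:28308405-28308602 (3.39 and 3.22). The last had the highest −log10 q of all regions specific to a genotype, at 9.17 and 7.22, and lay 145 bases from a region held by all 4 libraries (chr17:28308748-28309106), in which the KO libraries had the higher percentiles, 79.1 and 79.5 against 75.0 and 72.7. Opposite directions thus stood side by side 75.7 kb from the start. The remaining 4 were at chr2:27692595-27692856 in Rxra (2.55 and 2.36), chr17:34038633-34038774 after Rxrb (1.88 and 2.58) and at chr5:52075232-52075353 (2.92 and 2.37) and chr5:52114349-52114460 (1.75 and 2.19) in Ppargc1a. Of the 10 regions only in control, 6 lay within 1000 bases of a region held by all 4 libraries, with a median gap of 887 bases. Of the 9 only in KO, 3 did, with a median gap of 2856 bases.

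At −log10 q of at least 5 the 2 regions only in control were the Ppard region at chr17:28308405-28308602 and a Pparg region at chr6:115374998-115375185. The latter is the core of the region at 13.9 kb, where the −log10 q was 6.75 and 10.4 in the controls and 4.25 and 3.19 in KO 1 and KO 2. It was therefore absent from the KO lists by this threshold alone and had a peak in all 4 libraries without it.

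**Figure D5:**
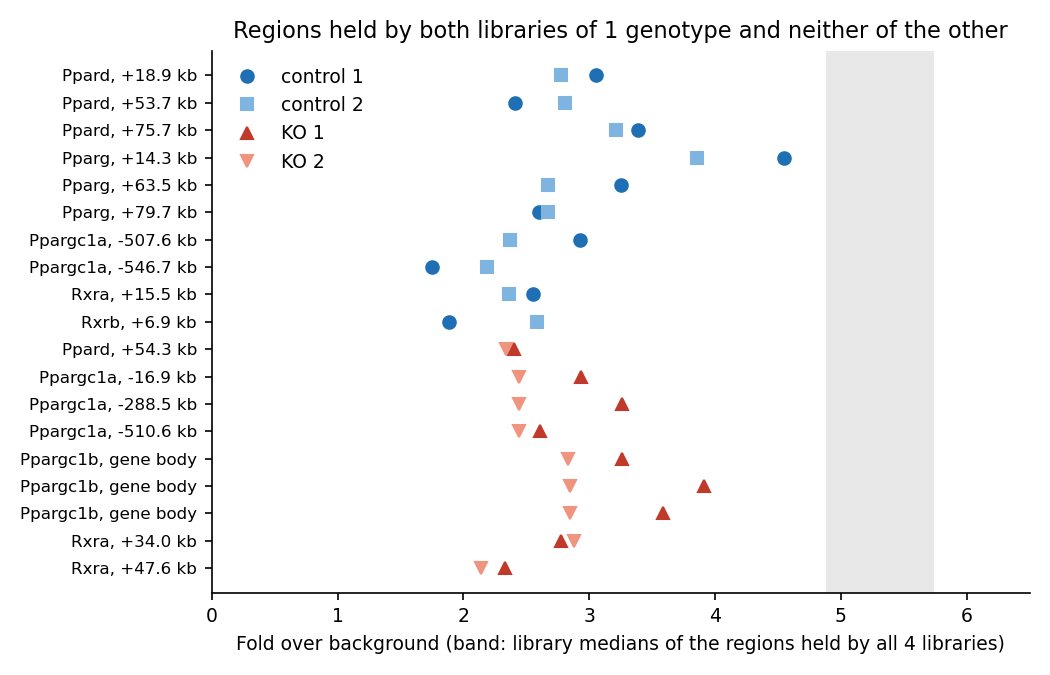
Points give the fold over background, in each library that held a peak, for the 10 regions only in control (upper rows) and the 9 only in KO (lower rows), named by gene and distance in kb from the first annotated start (for Ppargc1b, with no start in the table, as gene body). No point reaches the grey band, which spans the library medians of the 67 regions held by all 4 libraries (4.89 to 5.73).

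Weak peaks shared a small set of fold values, which bears on their ranks. Of the 38 regions that KO 1 alone held, 23 had a fold of 2.28, 2.61 or 2.93, and of the 39 that KO 2 alone held, 20 had 2.44, 2.85 or 3.26. For control 1 it was 19 of 35 with 2.28, 2.92 or 3.25, and for control 2 it was 8 of 28 among its 3 most frequent values. Ties of this kind gave weak regions equal percentiles in a library, such as 12.0 in KO 2 at 2 of the Ppargc1a regions only in KO.

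The wider pathway was counted over whole lists of partner receptors and coregulators and of PPAR target genes. All 20 coregulator and partner genes matched the annotation. Of these, 16 had a start in the table, and 14 of the 16 genes had a start open in all 4 libraries. The median percentile of these open starts was 95.2 in control 1, 95.4 in control 2, 95.2 in KO 1 and 95.2 in KO 2. These genes and their flanks had 293 regions held by at least 2 libraries, 175 of them held by all 4 (59.7%, against 58.4% of all regions). Regions only in KO numbered 4 (1.37%, against 3.47%) and only in control 15 (5.12%, against 6.05%). Prdm16, a partner of PGC-1α in brown fat, had 7 regions only in control and 1 only in KO among its 47. Ncoa2 and Ncoa3, genes of p160 coactivators, had 3 and 2 only in control, and Ncoa3 had 1 only in KO. Perm1, a regulator induced by PGC-1 in muscle, had 1 in each direction.

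Of the 32 target genes, 21 had a start in the table and 15 had one that was open in all 4 libraries. The starts of Cd36, Fabp1, Adipoq and Fgf21 had a peak in no library. These are a fatty acid transporter, the liver fatty acid binding protein, a fat cell hormone and a liver hormone, and Adipoq is also in the fat cell marker list. The median percentile of the open starts was 90.1, 92.6, 94.8 and 92.9 in control 1, control 2, KO 1 and KO 2. Around the 32 genes were 159 regions held by at least 2 libraries, with 89 held by all 4 (56.0%), 3 only in KO (1.89%, against 3.47%) and 11 only in control (6.92%, against 6.05%). Fabp3, Slc27a1 and Ucp2, for fatty acid binding, fatty acid uptake and a mitochondrial carrier, had 1 region only in KO each. Cpt1a had 2 only in control and Adipoq had 1. At the Cpt1a start the percentiles were 84.3 and 80.9 in control 1 and control 2 and 86.1 and 89.2 in KO 1 and KO 2, so the KO libraries lay above the controls.

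The genes most like each receptor were found by the distance over 8 numbers per gene, the percent of its regions held by each of the 4 libraries and the percentile of its start in each, among genes with a similar number of regions and a start open in all 4 libraries. Nearest to Ppara among 2022 genes were Actn2 (distance 5.84) and Zdhhc20 (7.56). Nearest to Ppard among 340 were Rasa3 (7.35) and Tbc1d8 (7.76), and to Pparg among 1595, Csf2rb2 (17.8) and Aif1l (18.3). For Rxra, among 450, they were Neurl1a (12.5) and Camk2b (12.8). For Rxrb, among 2688, they were Slc39a7 (2.72), which shares its start region, and Csrnp1 (4.59). Pparg and Rxra thus had no gene as near to them as the other receptors did. Ppargc1a and Ppargc1b had no start open in all 4 libraries in the table and were not compared in this way.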

How the data were processed

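The data were 4 ATAC-Seq peak lists of mouse bone marrow cells, 2 control and 2 KO. Peaks had been called per library and not on pooled reads. The authors' lists give, per summit, a fold (the ratio of signal to background), and the −log10 p and −log10 q they deposited. Bowtie2, MACS2 and mm10 are named in the submitters' processing notes, with no versions. The lowest −log10 p listed was 2.0. Read counts were not analysed here, so depth and its precision are unknown and the read-based comparison of the study could not be run.

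Intervals on the autosomes and X that shared at least 1 bp were merged (pandas 2.3.3 and numpy 2.4.6 on Python 3.11.15). Regions overlapping a gene or 10 kb on each side were assigned to it, and those held by at least 2 libraries were compared. A library's value was the highest fold in the region, ranked among all its intervals as a percentile, with ties at their mean rank. Genes, starts and upstream sequences came from RefSeq tables of GRCm38.p6. The merging and calls were tested on simulated data.

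The regions named were those at the starts, those specific to a genotype and, per gene, the strongest and the largest non-overlapping ones. At most 3 genes per list and direction were named by their number of regions specific to a genotype, and a gene that this rule covers is not reported here. The 7 genes, the lists and the rules were chosen with earlier results of these data known. The classes of GC content and of strength, the regions around the upper end of Ppargc1a, the gaps and the repeated fold values were chosen after the values were seen. Alternatives were a −log10 q of at least 5, lists of equal length, the 100000 strongest summits, windows of 200 bp around summits, a covered share of 0.5, no flank or 5 kb, other ranks and leaving out each library.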

Additional observations from a re-analysis of the deposited data

How the results depend on the processing

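Of the 124 regions, a −log10 q of at least 5 left 54 and the 100000 strongest summits left 50, fewer by construction. Regions only in KO then numbered 0 and 0 (9 with all peaks), only in control 2 and 2 (10), and held by all libraries 37 and 34 (67). With the 100000 strongest summits, 0.0% of the regions around the 7 genes were only in KO (3.11% over the series) and 4.0% only in control (2.75%). With a covered share of 0.5, 41 were held by all. Regions with KO above numbered 4 with the −log10 q threshold and 19 with lists of equal length (12 with all peaks). Regions with KO below numbered 5, 4 and, with the 100000 strongest summits, 1 (9). The cause was not tested for these last counts. The other settings that keep all libraries stayed within 1.5 times of each of these counts.

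When 1 library was left out, the regions ranged from 107 to 110, only in KO from 12 to 52, only in control from 16 to 46, held by all remaining libraries from 70 to 82, KO above from 21 to 34 and KO below from 15 to 27. A genotype left with 1 library needs the peak or the rank of that library alone, so the counts grow by construction. Regions only in KO were 12 without control 1 and 12 without control 2, and 49 without KO 1 and 52 without KO 2 (11.2%, 10.9%, 45.4% and 47.7%, against 7.45%, 7.16%, 50.8% and 48.9% of all regions). Regions only in control were 39 without control 1, 46 without control 2, 22 without KO 1 and 16 without KO 2 (36.4%, 41.8%, 20.4% and 14.7%, against 38.4%, 52.7%, 14.5% and 11.4%).

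The difference at the start, KO minus control in percentile points, kept its direction in all 5 receptor genes under both other ranks. Ranked among the regions held by all 4 libraries, it was −3.01 for Ppara (−0.808 by the fold among all peaks), −0.972 for Ppard (−0.254), 9.56 for Pparg (5.30), 13.6 for Rxra (8.88) and 10.8 for Rxrb (5.91). Ranked by −log10 p, it was −0.188 for Ppara, 6.89 for Rxra and 1.41 for Rxrb. No paired analysis was possible because nothing in the labels ties a control library to a KO library beyond its number. The counts come from no test. Unknown depth limits every count, since a missing peak may be a peak that was not detected.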
